A study of Mus musculus with 150 samples.

Results

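Single cells of 1 mouse lung tumour, called T1, were split by the DNA level of the first part of chromosome 7, and the cells on either side were compared over the genome. A cell counted as lost when the median log2 ratio of the 32 bins from 3000001 to 19123448 on chromosome 7 (GRCm38, 16.1 Mb) did not exceed -0.415, which corresponds to 1.5 copies where the cell's base level is 2. By this rule 24 of the 47 T1 cells with usable data were lost cells, and the other 23 are called the other T1 cells. The series held 150 cells, 50 from each of the tumours T1, T7 and T9 of the same animal, of which 145 passed a limit on noise. The cells were chosen by the levels of the stretch, so the difference between the sides there is a description and supports nothing else.

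The tumours were cut out separately 30 weeks after they had been induced, and the genomic DNA of each cell was sequenced on its own. Per the labels, the mice were of a mixed C57BL/6 and Sv129 background and came from strains that carry Trp53flox/flox, an allele of the tumour suppressor p53 that Cre recombinase can delete, with Rosa26LSL-tdTomato and Rosa26LSL-Luciferase, reporters that Cre switches on. Induction was with adenovirus that carried either Cre under the SPC promoter of alveolar type 2 cells (AdSPC-Cre) or the FlpO recombinase under a CMV promoter (AdCMV-FlpO), and the labels do not say which was used for these cells. Both sides of the split share this genotype, time and tumour, so no treatment or allele separates them. The labels name the source as alveolar type 2 cells of the lung, which DNA cannot check. No untreated or normal cell was among the samples, and T7 and T9 serve here as cells of other tumours measured the same way. Because all T1 cells came from 1 tumour of 1 animal, they do not replicate a condition, and the sides were compared without a test.

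A tumour can hold subclones, groups of cells that share chromosome gains or losses passed on from a common ancestor cell. Loss of a chromosome arm removes 1 copy of each gene on it, and losses shared by all cells of a tumour are usually taken as older than losses found in some. Proximal mouse chromosome 7 is rich in gene families that sit in clusters, among them vomeronasal pheromone receptors and zinc-finger repressors, and it carries imprinted genes that are expressed from the copy of 1 parent.

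The level of each cell is the log2 ratio of read coverage to a reference that the sources used here do not describe, centred on the median of the cell's autosomal bins. A level is thus relative to the other autosomes of its cell, and a genome doubled as a whole would look unchanged. The lost cells had a median depth of 0.040 reads over each base (0.013 to 0.063) and the other T1 cells 0.034 (0.008 to 0.057). Summed over the bins, this came to a median of 105.3 Mb of sequence in the lost cells and 88.7 Mb in the others. Noise, the typical scatter between neighbouring bins, had medians of 0.194 and 0.190 log2 units. The sides overlapped over most of their ranges in both measures. Losses of chromosomes 4 and 9 are carried by most cells of T1, and at least 1 of them was called in 24 of 24 lost cells and in 22 of 23 other T1 cells. Chromosome 4 was lost in 0 of 48 T7 cells and 3 of 50 T9 cells. By its median over all bins, chromosome 9 was also lost in 39 of 50 T9 cells, so its loss is not particular to T1. The low part was distal, from 28342824, and was called lost in 46 of 47 T1 and 44 of 50 T9 cells. The proximal part was lost in 0 of 47 T1 cells and gained in 46 of 50 T9 cells. Whether T1 and T9 share 1 event was not tested.

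On the stretch itself the lost cells lay between -0.88 and -0.43, with a median of -0.52, and the other T1 cells lay between -0.40 and 0.11, with a median of -0.28. In T7 the median was -0.04 and the lowest cell -0.43, and in T9 the median was 0.08 and the lowest cell -0.29. Thus 1 of 48 T7 cells and 0 of 50 T9 cells passed the limit. The other T1 cells were not at the level of the other tumours: most lay below it, and only 3 of them were above 0.

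No gap in the levels separated the sides. The cells nearest the limit were 180005 at -0.46 and 180035 at -0.43 among the lost cells, and 180018 and 180022, both at -0.40, among the others. The step across the limit between 180035 and 180018 was 0.028 log2 units. For comparison, the widest gap between neighbouring T1 cells was 0.267, below which lay cell 180039 alone at -0.88. The next widest gap was 0.183, and above it lay the 3 cells 180042, 180021 and 180001, at 0.087, 0.094 and 0.113. Within 0.1 log2 units of the limit lay 20 of the 47 cells.

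**Figure D1:**
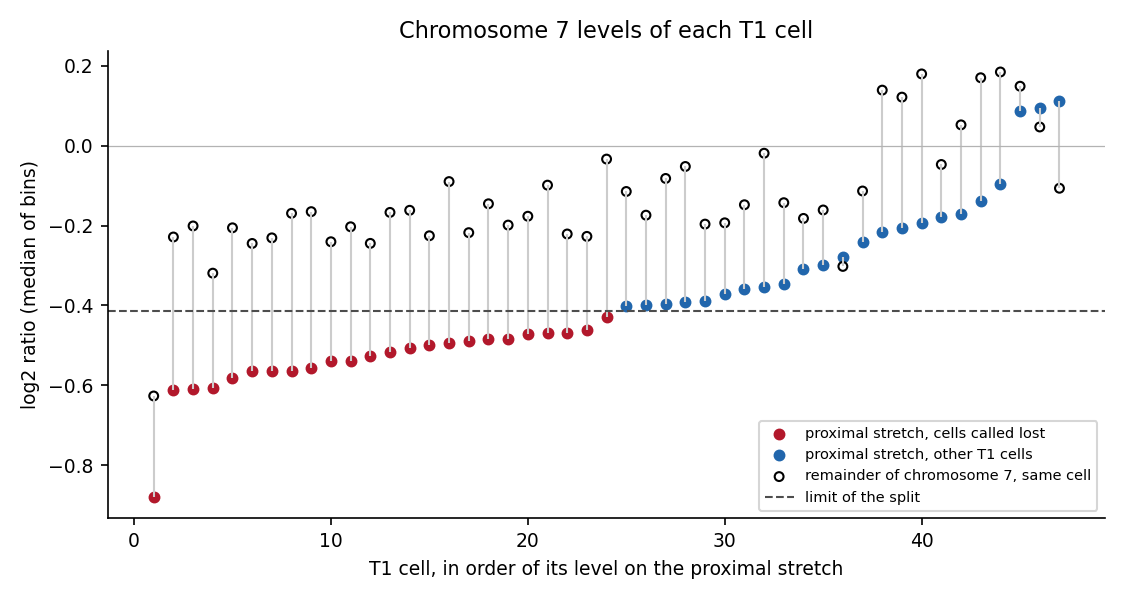
Each T1 cell in order of its log2 ratio on the proximal stretch of chromosome 7 (filled points, vertical axis), joined to the level of the remainder of chromosome 7 in the same cell (open points). The filled points run on without a gap across the dashed limit at -0.415, and in 44 of the 47 cells the filled point is the lower of the pair.

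Scatter between bins was read from the bins themselves. For this, the odd-numbered and the even-numbered bins of the stretch were taken as separate measurements of 16 bins each. Their levels had a Pearson correlation of 0.94 over the 47 cells, which share the bins' composition and the same library, and the standard deviation of their difference divided by 2 was 0.036. Of the 47 cells, 6 lay within that distance of the limit, and 43 fell on the same side by odd and by even bins. When the odd bins alone chose the cells, 25 were lost, 23 of them also lost by the full rule. In the even bins the medians were then -0.53 and -0.22. The even bins lie between the odd ones in the same libraries, so these medians are a description and no separate support for the split. Set against scatter between bins alone, the spread between the cells was the larger, whereas the side of the cells next to the limit was not fixed. Odd and even bins come from the same library, so variation between libraries is not in these values and the full precision of a cell's level was not measured. The level of the stretch had an SD of 0.199 over the T1 cells, beside 0.154 in T7 and 0.153 in T9.

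Every one of the 32 bins was lower in the lost cells, by -0.38 to -0.09 with a median of -0.24, and 23 of them differed by at least 0.2. Over the 5117 bins outside the stretch, 4.87% differed by that size in either direction, and since the rule used these 32 bins nothing is read from the contrast. The lowest bin of both sides was the first, at -0.88 in the lost cells and -0.51 in the others. The highest was the bin from 10135865 to 10635174, at -0.07 and 0.10, so single bins varied along the stretch by more than the sides differed. All 32 bins lay lower in the lost cells than in T7 and T9, and 28 of 32 did in the other T1 cells.

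The stretch held 396 genes named in the file. The largest families were the vomeronasal receptors, with 38 Vmn2r genes in 10 bins and 17 Vmn1r genes in 6 bins, followed by 26 Zfp zinc-finger genes in 8 bins. Smaller ones were Obox homeobox genes (8), Ceacam cell-adhesion genes (7), Psg pregnancy-specific glycoprotein genes (5), Sult2a sulfotransferase genes (5) and Nlrp inflammasome-related genes (4), with pseudogenes counted. The 13 bins that hold Vmn1r or Vmn2r genes lay at -0.63 in the lost cells and -0.32 in the others, and the 19 remaining bins at -0.48 and -0.24. A lower level of such bins was also seen away from chromosome 7. The 48 bins with these receptors on other chromosomes lay below the level of their own chromosome by a median of -0.15 in the lost cells and -0.12 in the other T1 cells, against -0.05 in T7 and -0.03 in T9. For 27 bins with at least 3 Zfp genes on other chromosomes the values were -0.19 and -0.15 on the sides of T1, with T7 at -0.002 and T9 at -0.04. Beyond the stretch, the 15 receptor bins of chromosome 7 lay at -0.06 and -0.03 from their chromosome, beside -0.02 in T7 and 0.07 in T9. The 9 bins there with at least 3 Zfp genes lay at -0.22 and -0.18, beside 0.006 in T7 and 0.05 in T9. On other chromosomes receptor-rich and zinc-finger-rich bins were thus lower in T1 on both sides, and the part of this in the level of the stretch was not tested. The 19 bins without the receptors lay at -0.48 in the lost cells and -0.24 in the others, while T7 lay at 0.01 and T9 at 0.09.

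Of the 18 listed genes of proximal chromosome 7, 15 lay in bins of the stretch, 8 different bins in all. All 15 lay lower in the lost cells and 8 of them by at least 0.2, as did 23 of the 32 bins of the stretch, and the rule used these bins. A value is that of the bin that holds the middle of the gene. Trim28, the corepressor that zinc-finger proteins recruit to silence chromatin (13024152 to 13031032), lay at -0.64 (SD 0.18) in the lost cells and -0.32 (SD 0.25) in the others, the largest difference of the list at -0.32. Cells of the lost side ran from -1.10 to -0.31 there and those of the other side from -0.86 to 0.15, so single cells overlapped widely.

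Lig1, the DNA ligase that joins Okazaki fragments, lay at -0.49 (SD 0.17) and -0.25 (SD 0.21). Bicra, a subunit of a chromatin-remodelling complex, lay at -0.57 (SD 0.14) and -0.37 (SD 0.22). The kinase gene Prkd2, the hypoxia-response gene Hif3a, the glutamine transporter gene Slc1a5 and the calmodulin gene Calm3 share 1 bin, at -0.34 (SD 0.26) and -0.13 (SD 0.18). Dmpk, the myotonic dystrophy protein kinase gene in the last bin of the stretch, lay at -0.32 (SD 0.26) and -0.12 (SD 0.16).

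The imprinted genes Peg3, Zim1 and Usp29 share a bin at -0.15 (SD 0.26) in the lost cells and 0.02 (SD 0.22) in the others. Copy number does not show which parent's copy was affected, and alleles were not measured. Bbc3, which encodes the p53 target PUMA that promotes cell death, lay in a bin at -0.19 (SD 0.29) and -0.08 (SD 0.22), the smallest difference of the list. Kmt5c, a histone H4 methyltransferase gene, and U2af2, a splicing factor gene, share another at -0.29 (SD 0.15) and -0.14 (SD 0.18).

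The lower level did not stop at the end of the stretch. The remainder of chromosome 7, 251 bins, had a median of -0.20 in the lost cells (-0.63 to -0.03) and -0.08 in the other T1 cells (-0.30 to 0.18). It was above 0 in 0 of 24 lost cells (Clopper-Pearson 95% interval 0 to 14.2%, for counting error) and in 8 of 23 other T1 cells (34.8%, 16.4 to 57.3). In T7 its median was -0.03 and in T9 0.04. Over the 47 T1 cells the level of the stretch and that of the remainder had a Pearson correlation of 0.77 and a Spearman correlation of 0.74. These points share a chromosome, a library and the cell's centring, and the same Pearson correlation was 0.28 over 48 T7 cells and 0.63 over 50 T9 cells.

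The step within the chromosome, the stretch minus the remainder in the same cell, does not depend on how a cell was centred. It contains the level of the stretch that the rule used, so its contrast between the sides is a description and nothing is read from it. The step ran from -0.41 to -0.23 in the lost cells, with a median of -0.33. In the other T1 cells it ran from -0.37 to 0.22, with a median of -0.21. In T7 its median was -0.02 and in T9 0.04. A step of -0.2 or lower was present in 24 of 24 lost cells (100%, 85.8 to 100) and in 13 of 23 other T1 cells (56.5%, 34.5 to 76.8), against 6 of 48 T7 cells (12.5%, 4.73 to 25.2) and 3 of 50 T9 cells (6%, 1.25 to 16.5). It was below 0 in 20 of the 23 other T1 cells. A drop at proximal chromosome 7 relative to the remainder was therefore found on both sides of the split, so the other T1 cells cannot be called cells without it.

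Part of the split followed the whole chromosome. Of the 8 other T1 cells with the remainder of chromosome 7 above 0, 6 had a step of -0.22 to -0.37, within or near the range of the lost cells. Cell 180034 had the remainder at 0.18 and the stretch at -0.19, a step of -0.37. Cell 180009 had 0.17 and -0.14, and cell 180006 had 0.18 and -0.10. These 3 cells were also the only T1 cells with chromosome 3 below 0, at -0.11, -0.13 and -0.18, where the T1 cells of the lost side ran from 0.15 to 0.31. The remainder of chromosome 7 was nearly as high in other cells, such as 180042 at 0.15 and 180043 at 0.14, whose chromosome 3 was above 0. The 3 cells were picked out after their values were seen.

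**Figure D2:**
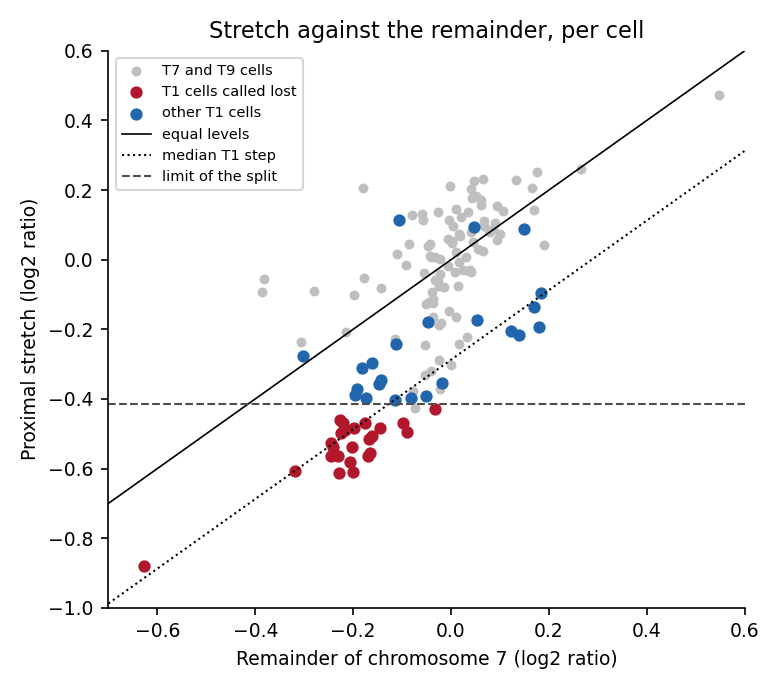
Level of the proximal stretch (vertical axis, log2 ratio) against the remainder of chromosome 7 (horizontal axis, log2 ratio), 1 point for each cell, with T7 and T9 cells in grey. T1 cells of both sides spread along a line below that of equal levels, and the dashed limit cuts through them.

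The 3 cells above 0 on the stretch differed from one another. Cell 180042 had the stretch at 0.087 and the remainder at 0.15, with chromosomes 4 and 9 lost at -0.53 and -0.46. Cell 180021 had 0.094 and 0.047, with chromosomes 4 and 9 at -0.47 and -0.49. Cell 180001 had 0.11 and -0.11, and its chromosomes 4 and 9, at -0.31 and -0.31, did not pass the limit of loss. The first and second of these cells thus carried the losses common in T1 without the low level of proximal chromosome 7, and the third was the cell of T1 in which neither loss was called. At the other end, cell 180039 had the stretch at -0.88 and the remainder at -0.63, with 9 chromosomes called gained or lost, where the median of both sides was 3.

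Where the lower part of chromosome 7 ended depended on how each bin was read. In the deposited log2 ratio, the first segment was lower than the next in 24 of 24 lost cells, with a median end at 19.1 Mb, and in 21 of 23 other T1 cells, with a median end at 20.1 Mb. The same break, at a median of 20.1 Mb, was also found in 37 of 48 T7 cells and 45 of 50 T9 cells. It lies where 6 bins from 20122070 to 23166500, in a cluster of Vmn1r genes, stood at 0.32 in T7 and 0.44 in T9. In T1 these bins lay at -0.30 in the lost cells and -0.005 in the others. The commonest single end was 20122069 in T7 (16 cells) and T9 (25 cells), 2 bins beyond the end of the rule's stretch, and 19123448 in T1 (7 cells).

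After the T7 and T9 median of each bin was subtracted, a step chosen after the data were seen, the 6 bins lay at -0.68 in the lost cells and -0.38 in the other T1 cells. The first segment then most often ended between 33 and 37 Mb, in 13 lost cells and 15 other T1 cells, with a median of 34.1 Mb on both sides. The bins from 30150168 to 34639667 lay at -0.40 and -0.19 on this scale, and those from 34639668 to 45161224 at -0.16 and -0.002. The commonest end in T7, in 4 cells, was then 34140834, which was also the commonest in T1. The ratio taken from the deposited depth was also less the T7 and T9 median of each bin. With it, a lower first segment was found in 10 of 24 lost cells and 17 of 23 other T1 cells. Its commonest end was 24164166, shared by 20 of 47 T1 cells and also commonest in T7 (4 cells) and T9 (3 cells). Apart from the subtracted T7 and T9 median, this ratio has no correction for base composition. On that scale the bins from 24164167 to 30150167, just beyond, lay at 0.15 on both sides. The 3 readings thus gave different ends, and the far end of the lower part was not fixed by these data.

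**Figure D3:**
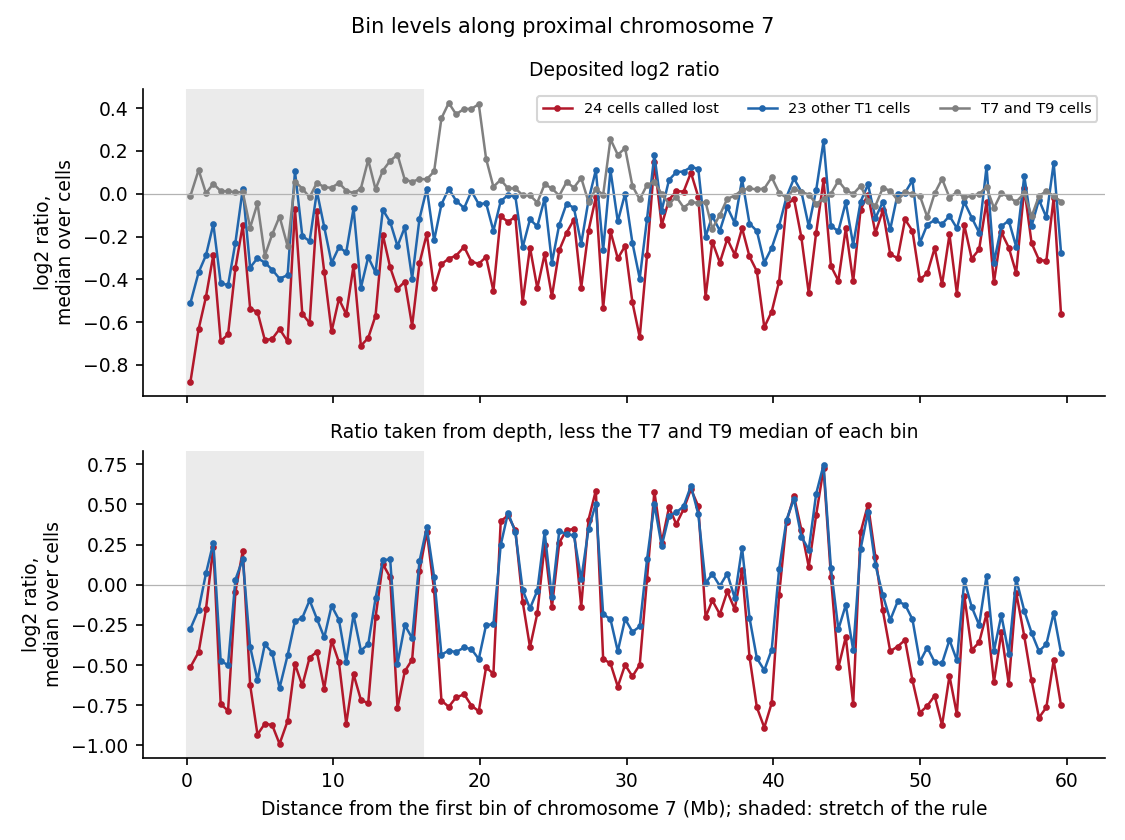
Median log2 ratio of each bin (vertical axis) by distance from the first bin of chromosome 7 in Mb, for lost cells, other T1 cells and, in the upper panel, T7 and T9 cells, with the stretch of the rule shaded. The upper panel shows the deposited ratio, in which T7 and T9 rise just beyond the shaded part. The lower panel shows the ratio taken from depth, less the T7 and T9 median of each bin. In it both T1 sides fall just beyond the shaded part.

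Outside the stretch, 249 of 5117 bins (4.87%) differed by at least 0.2 log2 units, a ratio of 1.15, between the medians of the sides. In the lost cells 139 were lower (2.72%) and 110 higher (2.15%). The median difference over all these bins was 0.003, and their range was -0.53 to 0.56. The number of genes in a bin had a Spearman correlation of -0.04 with the difference over 5117 bins, which are not independent. Of the lower bins, 109 of 139 (78.4%) lay on chromosomes 7 and 19. The remainder of chromosome 7 held 64 lower bins of 251 (25.5%) and 0 higher, and chromosome 19 held 45 lower of 116 (38.8%) and 0 higher. Away from chromosome 7, 185 of 4866 bins (3.8%) were called, 75 lower (1.54%) and 110 higher (2.26%). No other chromosome reached 10% of its bins in 1 direction: chromosome 6 had 22 higher of 293 (7.51%), chromosome 4 had 18 lower of 311 (5.79%), and chromosome 10 had 13 higher of 255.

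The split between higher and lower bins differed under other scalings, which also changed which cells were lost. Of the called bins, 42 were higher and 603 lower when cells were centred on the mode of their bins, 83 and 211 when chromosome 7 was left out of the centring, and 77 and 163 after the T7 and T9 median of each bin was subtracted. The lost cells numbered 28, 26 and 20 in these readings. Without cell 180039 the count was 256, and without the 3 cells above 0 on the stretch it was 177.

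**Figure D4:**
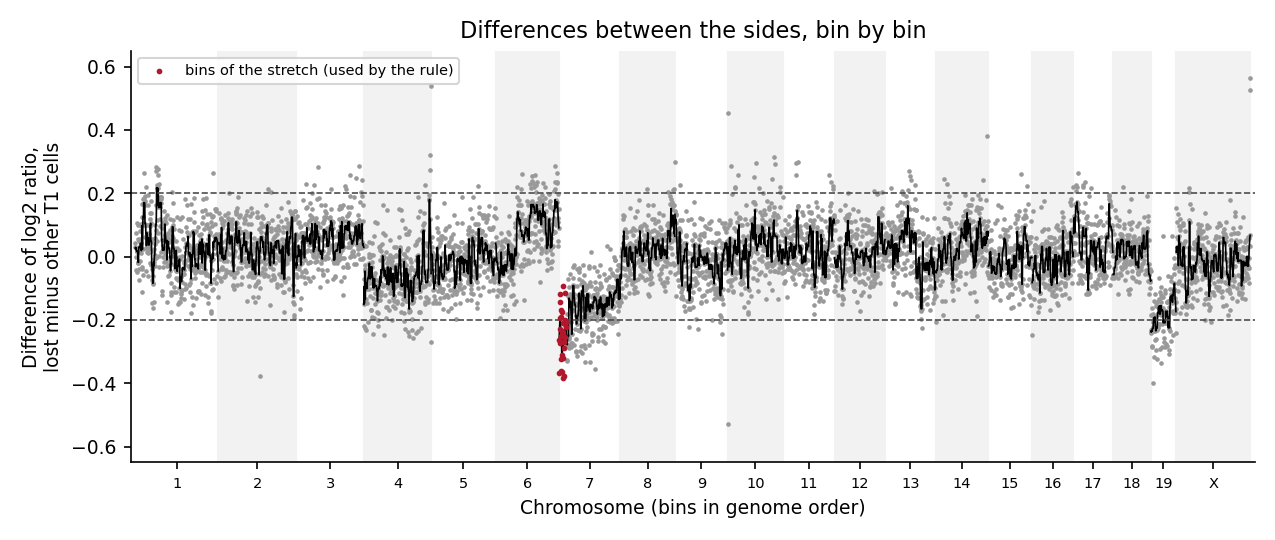
Difference of the median log2 ratio, lost cells minus other T1 cells (vertical axis), for each bin in genome order, with a running median over 9 bins as a black line, dashed lines at 0.2 and -0.2, and the 32 bins used by the rule in red. Chromosomes 7 and 19 lie below 0 over nearly their whole length, while the line stays near 0 on most others.

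By the medians of the sides, the chromosome with the largest difference was 19. The lost cells ran from -0.30 to 0.38, with a median of -0.15, and the other T1 cells from -0.59 to 0.54, with a median of 0.14. Chromosome 19 was below 0 in 17 of 24 lost cells and in 9 of 23 other T1 cells. The difference of the medians was -0.28 and that of the means was -0.11. By the means, the remainder of chromosome 7 differed more, by -0.17. Both sides held a low and a high group of cells, in unequal numbers. The difference of the medians was -0.24 without the 3 cells above 0 on the stretch. T9 itself lay at -0.21 and T7 at -0.02, so a low chromosome 19 was not a feature of T1 alone.

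The high cells of chromosome 19 overlapped with another pattern. Chromosomes 10 and 13 were both lost in 5 lost cells and 4 other T1 cells, and chromosome 19 was above 0 in all 9 of these. Outside them, chromosome 19 was above 0 in 2 lost cells and 10 other T1 cells. Of the 8 other T1 cells with the remainder of chromosome 7 above 0, 6 had chromosome 19 above 0 as well. The 9 cells with both losses had steps on chromosome 7 of -0.40 to -0.13, with a median of -0.29, so the drop at proximal chromosome 7 was present among cells with and without the losses of chromosomes 10 and 13. Chromosome 10, with or without chromosome 13, was lost in 5 of 24 lost cells (20.8%, 7.13 to 42.2) and 8 of 23 other T1 cells (34.8%, 16.4 to 57.3), and the intervals, which cover counting error only, overlap widely.

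Chromosome 17 had the next largest difference of the medians, 0.17. The lost cells ran from -0.17 to 0.28, with a median of 0.14, and the others from -0.27 to 0.31, with a median of -0.04. It was above 0 in 15 of 24 and 11 of 23 cells. The difference of the means was 0.04, and the direction of the difference of the medians turned with a stricter noise filter (-0.05) and lay at -0.002 when chromosome 7 was left out of the centring.

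Chromosome 4, which carries the Cdkn2a tumour suppressor locus, lay at -0.71 in the lost cells (-0.81 to -0.59) and -0.62 in the other T1 cells (-0.75 to -0.31), a difference of -0.09. Its loss was called in 24 of 24 and 21 of 23 cells. By the median over its bins, chromosome 9 was called lost in 23 of 24 and 21 of 23 cells, with medians of -0.59 and -0.53. Its distal part lay at -0.65 and -0.58, and its proximal part at -0.17 and -0.13. The lost cells were the more uniform side on chromosome 4, with an SD of 0.055 against 0.117, and the ranges overlapped.

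Chromosome 6 had medians of 0.41 (0.23 to 0.61) and 0.35 (0.08 to 0.62), a difference of 0.06, which turned to -0.03 when cells were centred on the mode. Its distal part, from 69719313 to the last bin, lay at 0.52 in the lost cells (0.24 to 0.76) and 0.40 in the others (0.09 to 0.64), whereas the proximal part lay at 0.25 and 0.24. By the median over all its bins, gain of chromosome 6 was called in 22 of 24 lost cells (91.7%, 73.0 to 99.0) and 15 of 23 other T1 cells (65.2%, 42.7 to 83.6). The distal part alone gave the same counts. The proximal part was called gained in 7 of 24 lost cells and 8 of 23 other T1 cells. The difference in counts thus lay in the distal part, where the intervals overlap. That part was also gained in 38 of 48 T7 and 41 of 50 T9 cells. Its difference of 0.12 between the medians became 0.04 when cells were centred on the mode, with 28 lost cells. With stricter limits of gain the counts by the median over all bins were 8 and 4.

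**Figure D5:**
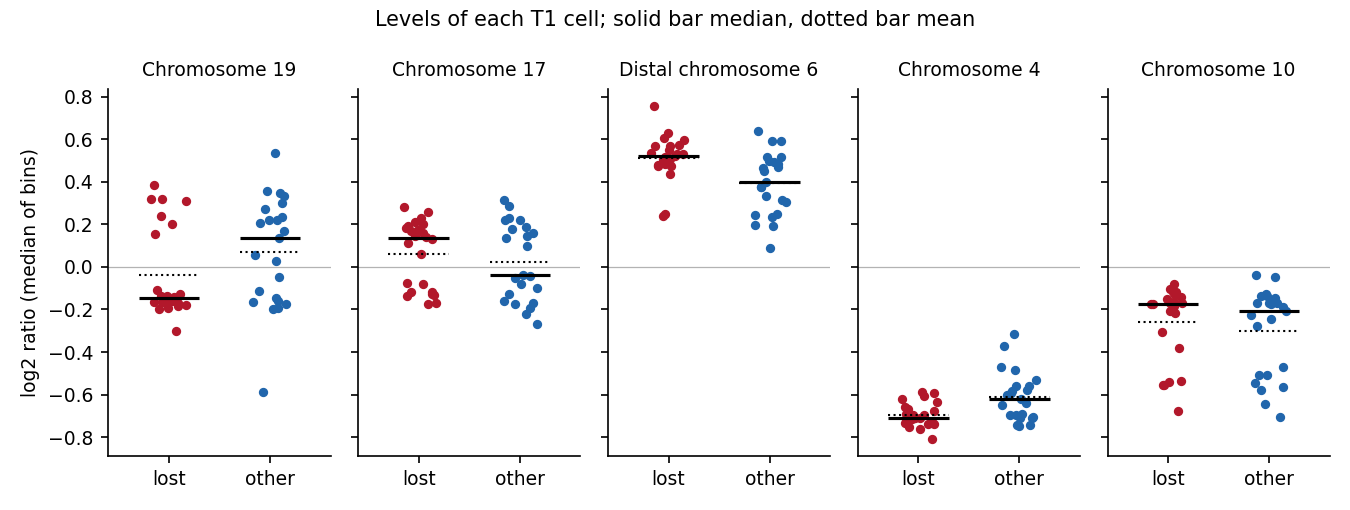
Log2 ratio of 5 chromosomes or parts (vertical axis) in each lost cell and each other T1 cell, with the median as a solid bar and the mean as a dotted bar. Chromosomes 19 and 17 form a high and a low group on both sides, and distal chromosome 6, chromosome 4 and chromosome 10 overlap between the sides.

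Further changes of T1 were found in cells of both sides. The window of chromosome 8 from 7447887 to 15355241, which holds the insulin receptor substrate gene Irs2, stood at a log2 ratio of 1 or more in 5 lost cells and 5 other T1 cells. At the limit of gain the counts for this window were 21 of 24 (87.5%, 67.6 to 97.3) and 13 of 23 (56.5%, 34.5 to 76.8). The window of chromosome 13 from 25146896 to 31175104, with the transcription factor genes Sox4 and E2f3, stood at 1 or more in 5 and 7 cells. Both windows stood at 1 or more in 3 and 5. The end of chromosome 18 from 77932880 was gained in 8 and 7 cells. Chromosome X was lost in 0 of 24 lost cells, which allows up to 14.2% by the Clopper-Pearson interval, and in 3 of 23 others. Gained and lost segments together covered a share of the autosomes with medians of 17.7% and 17.6%. The 95% intervals of these shares overlap between the sides, and they cover counting error only.

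Only 4 runs of at least 5 neighbouring bins outside the stretch differed by at least 0.2 in 1 direction, all lower in the lost cells, and all on chromosomes 7 and 19. The run at chromosome 7 from 19123449 to 21620000 adjoins the stretch and held 83 named genes, among them the lipoprotein genes Apoe, Apoc1 and Apoc2 and the NF-kB family genes Relb and Bcl3. It lay at -0.31 (-0.76 to -0.10) in the lost cells and -0.02 (-0.43 to 0.42) in the others. T7 and T9 stood at 0.26 and 0.37 there.

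On chromosome 19 the run from 7313780 to 9814603 lay at -0.53 (-0.80 to 0.24) in the lost cells and -0.25 (-0.82 to 0.32) in the others. It holds Scgb1a1, the secretoglobin gene that marks airway club cells, and Slc3a2, a subunit of amino acid transporters. The run from 14816251 to 17317073 lay at -0.10 (-0.46 to 0.56) and 0.21 (-0.54 to 0.57), and holds the G protein gene Gnaq and the serine synthesis gene Psat1. The run from 32822179 to 35323002 lay at -0.15 (-0.63 to 0.60) and 0.11 (-0.76 to 0.45), and holds the death receptor gene Fas, the actin gene Acta2 and the interferon-induced genes Ifit1, Ifit2 and Ifit3. The cells of the sides overlapped in each run. The genes of the runs were named after their values were seen.

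Several of the single bins that differed most lay at or near chromosome ends, outside these runs. The last kept bin of chromosome 9, from 124422466 to 124495110, lay at -1.14 in the lost cells and -0.61 in the others. The last kept bin of chromosome 4, from 156306012 to 156358116, which holds Vmn2r125, lay at 1.52 and 0.98, and a bin of chromosome X from 170808512 to 170881299 at 1.70 and 1.14. These bins stood far from 0 on both sides, and higher or lower still in the lost cells. The first kept bin of chromosome 10, from 3100001 to 3589097, lay at 0.44 in the lost cells and -0.01 in the others. Away from the ends, the bin of chromosome 10 from 108628637 to 109127872, which holds the synaptotagmin gene Syt1, lay at 0.17 and -0.14.

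The listed genes on the remainder of chromosome 7 here include Ercc1, Ercc2 and Fosb in the first bin beyond the stretch. All 15 lay lower in the lost cells and 9 of them by at least 0.2, some of the 9 sharing a bin. On the remainder of chromosome 7, 64 of 251 bins (25.5%) were lower by that size, and 2.72% of all bins outside the stretch. These 15 genes lie in 12 bins of 1 chromosome, whose level as a whole differed by -0.12, and they were listed with earlier results known.

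Genes of DNA repair and cell death were among them. Ercc1 and Ercc2, which act in nucleotide excision repair, share a bin with Fosb, a subunit of the AP-1 transcription factor. That bin lay at -0.19 (SD 0.20) in the lost cells and 0.02 (SD 0.21) in the others. Bax, which permeabilises mitochondria during cell death (45461695 to 45466903), lay at -0.46 (SD 0.22) and -0.15 (SD 0.21), the largest difference of the list at -0.31.

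Growth factor signalling was represented by Tgfb1, the transforming growth factor beta 1 ligand, and Axl, a receptor tyrosine kinase, in 1 bin at -0.51 (SD 0.20) and -0.25 (SD 0.23). The kinase gene Akt2 lay at -0.28 (SD 0.15) and -0.02 (SD 0.19). Among metabolic genes, Idh2, the mitochondrial isocitrate dehydrogenase, lay at -0.42 (SD 0.22) and -0.16 (SD 0.17), and Apoe, the lipid carrier, at -0.44 (SD 0.12) and -0.22 (SD 0.22).

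The remaining 6 genes of that list differed by less than 0.2. Cebpa, a transcription factor gene of lung epithelium, lay at 0.15 (SD 0.24) and 0.18 (SD 0.28). The cyclin gene Ccnd1 lay at 0.14 (SD 0.24) and 0.17 (SD 0.31), and Ccne1 at -0.01 (SD 0.21) and 0.12 (SD 0.22). Igf1r, the receptor of insulin-like growth factors, lay at 0.06 (SD 0.20) and 0.16 (SD 0.25). Imprinted Igf2 and Cdkn1c near the far end lay at -0.05 (SD 0.24) and -0.10 (SD 0.23) in the lost cells and at 0.10 (SD 0.33) and 0.04 (SD 0.29) in the others.

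On the other chromosomes, 1 of 29 listed oncogenes, tumour suppressors and lung genes differed by at least 0.2, where 3.8% of the bins outside chromosome 7 did. It was Arid1a, a subunit of the SWI/SNF chromatin-remodelling complex on chromosome 4, at -0.99 (SD 0.20) in the lost cells and -0.76 (SD 0.34) in the others. No listed gene was higher by 0.2, and the closest was Sftpc, the surfactant protein gene of alveolar type 2 cells, at 0.17 (SD 0.33) and -0.03 (SD 0.33), a difference of 0.195. The median difference of the 29 genes was -0.02, beside 0.01 over the 4523 autosomal bins outside chromosome 7.

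Tumour suppressor loci on lost chromosomes were low on both sides. Cdkn2a lay at -0.77 (SD 0.20) and -0.67 (SD 0.13), Atm, the DNA damage kinase, at -0.69 (SD 0.21) and -0.64 (SD 0.22), and Setd2, a histone methyltransferase, at -0.63 (SD 0.19) and -0.61 (SD 0.21). Met, a receptor tyrosine kinase on chromosome 6, lay at 0.36 on both sides (SD 0.22 and 0.26). The bin of Trp53 lay at -0.29 (SD 0.20) and -0.25 (SD 0.26). A deletion of the Trp53flox allele by Cre would be smaller than a bin, so these values do not show whether it took place.

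Over the 47 T1 cells, the level of the stretch had a Pearson correlation of -0.48 with chromosome 3, 0.46 with chromosome 4, 0.34 with chromosome 16, -0.32 with chromosome 6, 0.31 with chromosome 9 and 0.21 with chromosome 19. The corresponding Spearman correlations were -0.30, 0.39, 0.24, -0.35, 0.31 and 0.26. Without the 3 cells above 0 on the stretch, the Pearson correlations over 44 cells were -0.48, 0.15, 0.13, -0.38, 0.06 and 0.14, so those with chromosomes 4, 16 and 9 rested largely on these cells. With noise the Pearson correlation was -0.31, and -0.18 without the 3 cells, and with depth it was -0.13. In T7 and T9, where the medians of the stretch were near 0, the correlation with depth was -0.56 and -0.51. The levels of a cell share 1 centring and 1 library, so these values describe the cells and are not tests.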

How the data were processed

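Genomic DNA of 150 single cells of 3 tumours of 1 mouse was sequenced. Per the submitters' processing notes, alignment used BWA 0.7.17 and the mouse build GRCm38. The deposited depth table gives a coverage signal per bin, and 99.8% of its entries multiplied by the length of their bin came within 0.1 of a whole number. A second deposited table holds the log2 ratio of every bin in every cell, and the deposited weight table a score per bin, the same in all cells. The making of ratio and weight, the sorting and amplification of cells and the treatment of doublets are not stated in the labels, and no doublet caller was run.

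Of 5331 bins, with a median length of 500 kb, 5149 (4806 autosomal, 343 on X) had depth in at least 80% of cells and were kept. Noise was 1.4826 times the median absolute difference of neighbouring autosomal bins over the square root of 2, with a limit of 0.267, the median plus 3 scaled median absolute deviations. In T1 3 cells exceeded it, in T7 2 and in T9 0. Each cell was centred on its autosomal median. Cells were split by the rule given above, and sides were compared by the difference of medians, called at 0.2. A chromosome counted as gained from 0.32, which stands for 2.5 copies on a base of 2, and as lost from -0.42 downwards. Segments came from optimal partitioning by least squares (penalty multiplier 3, at least 5 bins a segment). It was run on planted steps in independent Gaussian noise. That noise lacks the bin pattern that T7 and T9 share, so the run does not bear on the ends found here. Shares carry Clopper-Pearson 95% intervals, for counting error only.

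The cells, regions, gene lists and alternatives were chosen with earlier results of these data known. Named were the listed genes whose bin differed by at least 0.2, with others for position, the 5 chromosomes with the largest difference, runs of at least 5 bins, and the 2 cells nearest the limit on each side. Genes were placed by their RefSeq coordinates on GRCm38.p6. Genes, cells and families named beside the rule were chosen after their values were seen. Alternatives changed the limit, noise filter, centring, values, bin summary and call size. A result on 1 engineered locus is not reported here, and RNA of the same tumours was not used here. The scripts ran under Python 3.11.15 with matplotlib 3.10.9, scipy 1.17.1, numba 0.67.0, pandas 2.3.3 and numpy 2.4.6.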

Additional observations from a re-analysis of the deposited data

How the results depend on the processing

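Over 15 results and 171 alternatives, 151 values stayed within the spread between cells or within 1.5 times the count, 20 moved further, and 0 called values turned sign. Only the chromosome 19 difference was large enough to count as called here. The spread is wide beside most differences, so a value that stayed can still change much. Chromosome 6 went from 0.06 to -0.03 within a spread of 0.12. The end of the first chromosome 7 segment went from 19.1 to 24.2 Mb with depth, within a spread of 7.8 Mb. The 24 lost cells became 14 with a limit of -0.5, 13 without cells within 0.1 of the limit and 12 with a stricter noise filter, in each case because fewer cells passed. The median end of the first chromosome 7 segment in lost cells moved from 19.1 to 34.1 Mb less the T7 and T9 bin median. The 249 called bins became 548 with a limit of log2(0.8), 767 without cells within 0.1 of the limit, 425 with the stricter noise filter, 548 in the deeper cells alone, 645 centred on the mode, 942 with the ratio taken from depth, 421 when split by segments, 1542 when called at 0.1 and 22 when called at 0.3. Of the 41 genes listed for chromosome 7 beyond the stretch and for other chromosomes, without Ercc1, Ercc2 and Fosb, 7 were called. Without the cells near the limit, which left 13 lost and 14 other T1 cells, 13 were called. In the deeper cells, 16 lost and 8 other, 11 were called. The called share of all bins outside the stretch rose as well, from 4.87% to 14.99% and 10.71% in these settings. The rise in gene counts is thus not particular to the listed genes, and its cause was not tested. The difference of the remainder of chromosome 7 was -0.28 without the cells near the limit, and otherwise between -0.24 and -0.10. That of chromosome 19 stayed negative in all 14 alternatives, between -0.33 and -0.11. No replicate was left out in turn, since no cell is a replicate of a group, and no paired analysis was possible because the tumours share no replicate numbers and the sides are parts of 1 tumour. How depth bears on the side of the cells near the limit was not tested, and bins of 500 kb limit every gene value.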
